A study of Mus musculus with 8 samples.

Results

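The interferon response genes followed here are 38 mouse genes chosen by symbol, a fixed list of transcription factors, RNA sensors and antiviral effectors that cells raise when interferon signals through the STAT proteins. All 38 were found among the 23238 gene symbols counted in RNA of uterine stromal cells. They were compared over 4 groups of 2 libraries each: Atg7-deleted stroma after estradiol, Atg7-deleted stroma after oil, control stroma after estradiol and control stroma after oil. All mice were ovariectomized and of a strain given as C57BL/6-ICR. The deleted groups carry the genotype Atg7d/d, in which Cre under the control of Amhr2, a receptor gene used to reach the uterine mesenchyme, removed the floxed autophagy gene Atg7. The controls are Atg7f/f, with the floxed gene intact. Since the labels give no group with Cre alone, the deletion and the presence of Cre cannot be told apart. Estradiol (E2), the main ovarian estrogen, or oil had been injected. Dose, time and the way stroma was separated are not in the labels, and nothing says whether the 2 libraries of a group are from different mice. The p-values below therefore cover the spread between 2 libraries, which may be technical.

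Interferons are secreted proteins, and most type I interferons are released by cells on sensing viral nucleic acid. Type I interferons act through the receptor Ifnar1 and Ifnar2 and a complex with STAT2 and IRF9 that binds a DNA element called ISRE, and interferon gamma acts through Ifngr1 and Ifngr2 and on a DNA element called GAS. The genes so raised cut, trap or modify viral RNA and proteins. In the uterus an unusual type I interferon, interferon epsilon, is made without infection and is known to follow estrogen, and several interferon-induced genes change over the cycle and in early pregnancy.

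Library totals ran from 5458390 to 6951080 counts. Expression is stated in CPM, which is the reads of a gene relative to its library's total after scaling libraries to a common size. The library kit reads the 3′ ends of transcripts, so counts do not grow with gene length. Levels may be set side by side between genes only roughly, because reads may be shared with copies or overlapping genes. Of the 38 genes, 37 passed the filter on low counts that left 13347 tested genes, and Oas2 did not, with 2 to 10 reads per library. Atg7 itself had 23 and 22 reads in Atg7-deleted estradiol libraries and 21 and 33 reads in Atg7-deleted oil libraries, against 20 and 23 in control estradiol libraries and 22 and 32 in control oil libraries. These reads do not check the genotype, because they come from the transcript's 3′ end and the labels do not say which part of the gene is deleted. Fibroblast markers summed to 7898 to 8558 CPM in Atg7-deleted estradiol libraries and 2251 to 2883 CPM in Atg7-deleted oil libraries, and to 5814 to 8270 CPM in control estradiol libraries against 1888 to 2300 CPM in control oil libraries. Epithelial markers such as Epcam and Krt18 summed to 1286 and 1751 CPM in Atg7-deleted estradiol libraries and 11090 and 4764 CPM in Atg7-deleted oil libraries, and to 1241 and 2607 CPM in control estradiol libraries against 17910 and 6096 CPM in control oil libraries. In all 4 oil libraries the epithelial sum was above the fibroblast sum, so the label of stromal cells goes with a large epithelial signal there. Smooth muscle markers, of which 5 of 6 were called higher with estradiol on average and 0 lower, summed to 5988 and 6914 CPM in Atg7-deleted estradiol libraries and 2706 and 3611 CPM in Atg7-deleted oil libraries, and to 6212 and 6362 CPM in control estradiol libraries against 1404 and 3141 CPM in control oil libraries. In such bulk RNA, fewer cells of a type and less RNA per cell cannot be told apart.

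The promoters of 5 members are shown because these genes represent the patterns described below: Bst2 rose with estradiol, Rsad2, Irf1 and Ifitm1 fell, and Isg15, a usual readout of the response, did not pass the test. Each stretch starts 150 bases before the RefSeq transcript start in build GRCm38.p6 and reads 5′ to 3′ on the gene's strand. Bst2 is on the minus strand at chr8:71537473-71537622, Rsad2 on the minus strand at chr12:26456453-26456602, Isg15 on the minus strand at chr4:156200819-156200968 and Irf1 on the plus strand at chr11:53769864-53770013. Ifitm1 is on the plus strand at chr7:140967926-140968027, a stretch that GENCODE places in an intron of a longer Ifitm1 transcript, and it is shown up to the next annotated exon, 49 bases before the RefSeq start. Capitals mark the ISRE letters, which are GAAA, then any 2 bases, then GAAA, on either strand (in Rsad2 on the opposite strand). In Irf1 they mark the GAS letters TTCNNNGAA, and Ifitm1 has no ISRE match in the bases shown.
Bst2: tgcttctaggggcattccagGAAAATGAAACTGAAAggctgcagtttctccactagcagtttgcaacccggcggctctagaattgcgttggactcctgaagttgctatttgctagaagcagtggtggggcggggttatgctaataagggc
Rsad2: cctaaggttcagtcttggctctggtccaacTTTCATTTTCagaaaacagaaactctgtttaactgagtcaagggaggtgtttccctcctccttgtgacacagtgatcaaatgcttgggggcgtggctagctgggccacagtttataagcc
Isg15: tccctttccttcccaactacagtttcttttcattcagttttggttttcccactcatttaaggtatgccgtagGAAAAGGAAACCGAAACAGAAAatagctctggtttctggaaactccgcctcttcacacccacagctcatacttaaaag
Irf1: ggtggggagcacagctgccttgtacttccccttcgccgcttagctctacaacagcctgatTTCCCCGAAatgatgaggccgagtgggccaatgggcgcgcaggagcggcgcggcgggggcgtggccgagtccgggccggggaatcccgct
Ifitm1: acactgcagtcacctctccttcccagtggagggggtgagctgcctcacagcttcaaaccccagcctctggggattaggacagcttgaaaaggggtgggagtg

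Windows of 250 bases before to 50 bases after the start were matched for 29 of the 38 members, and 5 of them had 2 windows. The ISRE letters were found on either strand in 17 of 34 member windows, each of another gene, and in 3.44% of all 32851 windows. The GAS letters were in 10 of 34 member windows (29.4%) and in 8.30% of all windows. The full estrogen response element, GGTCA and TGACC with any 3 bases between them, was in 0 member windows and in 0.0700% of all windows. Bst2, Gbp3, Irgm1, Isg15 and Oas1a hold overlapping ISRE matches, 3 in a row in Isg15, and in Bst2 and Ifitm3 a GAS match overlaps an ISRE match. A match of letters is a description of the window, not a bound site. Not matched were Dhx58, Zbp1, Ifi27, Oas2, Mx1, Mx2, Rtp4, Usp18 and Parp14.

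**Figure D1:**
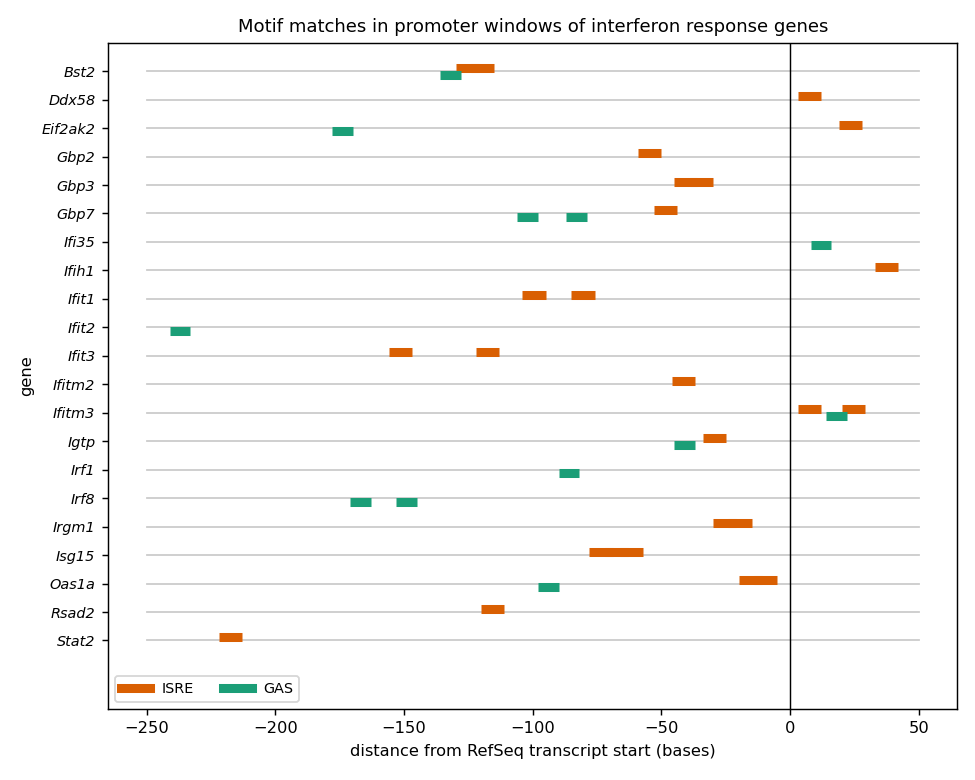
Matches of the ISRE letters (orange) and GAS letters (green) in promoter windows of the member genes with a match, by distance in bases from the RefSeq transcript start (vertical line). Isg15 carries 3 overlapping ISRE matches between 78 and 57 bases before the start, and Ddx58, Eif2ak2, Ifih1 and Ifitm3 carry theirs after it.

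Averaged over both genotypes, 5 of the 37 tested members rose with estradiol, namely Bst2, Oas1a, Ifi44, Eif2ak2 and Ifi27, and 8 fell, namely Ifitm1, Mx2, Rsad2, Parp14, Stat2, Irf1, Irf8 and Ifih1, by edgeR's quasi-likelihood test at an adjusted p below 0.05. Of all tested genes 24.1% rose and 22.2% fell in that comparison, so 13.5% of members rising is below the background and 21.6% falling is near it. The median log2 fold change was -0.11 over members and 0.02 over all tested genes. The estradiol and oil libraries, 4 against 4, did not overlap for 4 members that were higher with estradiol (Bst2, Eif2ak2, Ifi27 and Xaf1), against 24.3% of all tested genes, and for 6 that were lower (Ifitm1, Mx2, Rsad2, Parp14, Irf1 and Irf8), against 21.5%. Of the 13 calls, 7 held in all 15 alternative analyses, those of Irf1, Eif2ak2, Mx2, Rsad2, Bst2, Ifitm1 and Parp14.

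**Figure D2:**
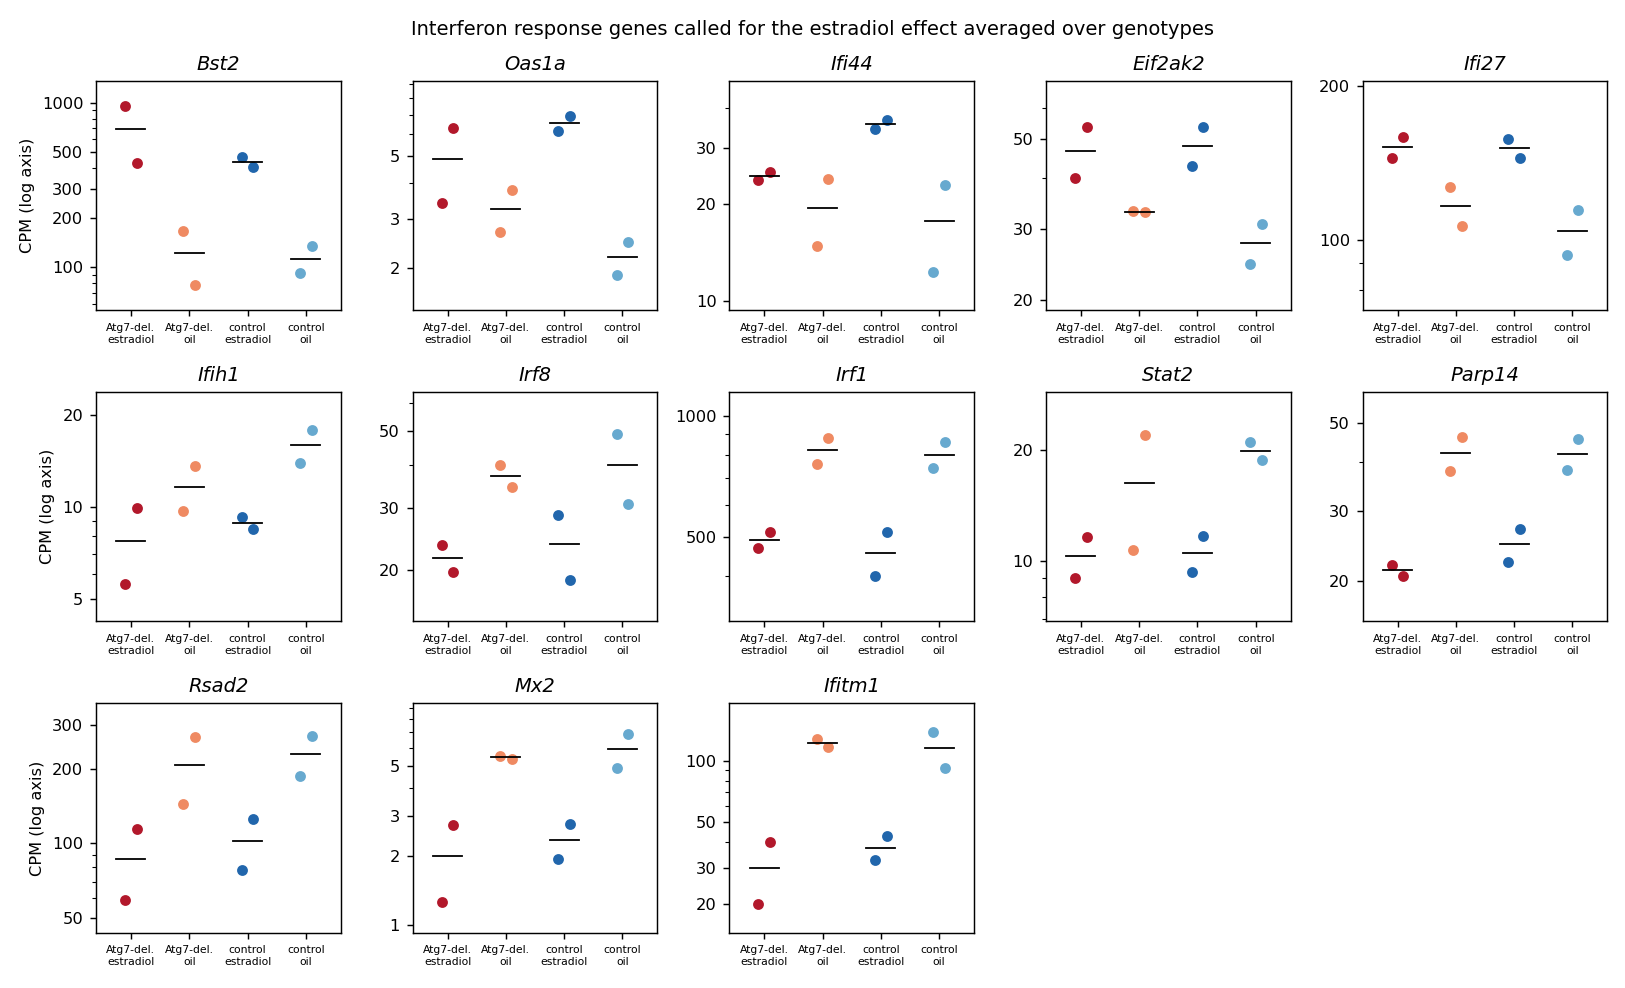
CPM per library on a log axis for the 13 members called for the average estradiol effect, ordered by fold change, with points for libraries and bars for the mean of the 2 libraries of a group. Bst2 is above 400 CPM in all estradiol libraries and below 170 CPM in all oil libraries, and Ifitm1 is below 43 CPM in all estradiol libraries and above 91 CPM in all oil libraries.

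Transcription factors of the response were lower with estradiol where they changed. Irf1, a factor that interferon gamma raises within a short time, had 469 and 514 CPM in Atg7-deleted estradiol libraries against 760 and 880 CPM in Atg7-deleted oil libraries. In control stroma Irf1 had 400 and 513 CPM after estradiol against 740 and 860 CPM after oil. Every estradiol library was below every oil library, with a log2 fold change of -0.77 ± 0.14 (SE, adjusted p = 0.00208, edgeR) averaged over genotypes. Irf1 also fell in each genotype on its own, by 0.74 on the log2 scale in Atg7-deleted stroma (adjusted p = 0.0257, edgeR) and by 0.81 in control stroma (adjusted p = 0.0154, edgeR). Neither of these calls held without every library: leaving out the Atg7-deleted estradiol libraries 1 and 2 and the Atg7-deleted oil libraries 1 and 2 in turn gave adjusted p of 0.174, 0.110, 0.0656 and 0.129, and leaving out control estradiol library 1 gave 0.127.

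Irf8, a factor known mainly from myeloid and lymphoid cells, had 23.6 and 19.7 CPM in Atg7-deleted estradiol libraries against 40.0 and 34.5 CPM in Atg7-deleted oil libraries, and 28.8 and 18.7 CPM in control estradiol libraries against 49.1 and 30.8 CPM in control oil libraries. The estradiol libraries were all below the oil libraries, by a narrow gap, and Irf8 fell by 0.77 ± 0.20 on the log2 scale (SE, adjusted p = 0.0136, edgeR). Without Atg7-deleted estradiol library 2 or without control estradiol library 2 the adjusted p was 0.0617 and 0.0523. Without both oil libraries numbered 1, those with the higher epithelial sum in their group, an analysis added after those sums were seen, the log2 fold change of Irf8 was -0.53 with an adjusted p of 0.0597 (edgeR). Conventional dendritic cell markers summed to 14.2 and 10.8 CPM in Atg7-deleted estradiol libraries against 19.8 and 20.5 CPM in Atg7-deleted oil libraries, and to 9.08 and 11.2 CPM in control estradiol libraries against 18.8 and 17.5 CPM in control oil libraries. These sums did not overlap, and of the 3 tested markers 1 fell, Zbtb46 (-0.99 ± 0.19, SE, adjusted p = 0.00258, edgeR). The macrophage markers summed to 259 and 192 CPM in Atg7-deleted estradiol libraries against 163 and 182 CPM in Atg7-deleted oil libraries, and 179 and 120 CPM in control estradiol libraries against 154 and 130 CPM in control oil libraries. Of 10 tested macrophage markers, 3 rose on average (C1qa, Fcgr1 and Mrc1) and Cd68 fell (-0.70 ± 0.18, SE, adjusted p = 0.0115, edgeR), and Lyz2 fell in control stroma (-1.43 ± 0.34, SE, adjusted p = 0.0134, edgeR). The part of these cell types in the fall of Irf8 was not tested.

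Stat2, the STAT protein particular to type I and III interferon signalling, had 9.0 and 11.6 CPM in Atg7-deleted estradiol libraries against 10.7 and 21.9 CPM in Atg7-deleted oil libraries, and 9.36 and 11.7 CPM in control estradiol libraries against 21.0 and 18.8 CPM in control oil libraries. The groups overlapped only through the low Atg7-deleted oil library 1. Stat2 fell by 0.79 ± 0.25 on the log2 scale (SE, adjusted p = 0.0273, edgeR), and the adjusted p was 0.104, 0.0538, 0.111 and 0.0937 without Atg7-deleted estradiol library 1, Atg7-deleted estradiol library 2, Atg7-deleted oil library 2 and control estradiol library 1. Irf9, its DNA-binding partner, averaged 50.1 CPM in Atg7-deleted estradiol libraries and 67.5 CPM in Atg7-deleted oil libraries, and 68.0 CPM in control estradiol libraries and 72.8 CPM in control oil libraries. Irf9 did not pass the test of the average (-0.26 ± 0.13, SE, adjusted p = 0.124, edgeR), nor did Irf7, the factor that amplifies type I interferon (-0.33 ± 0.29, SE, adjusted p = 0.377, edgeR).

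Among the sensors of foreign nucleic acid only Ifih1 (MDA5, a receptor for long double-stranded RNA) was called. Ifih1 had 5.58 and 9.87 CPM in Atg7-deleted estradiol libraries against 9.64 and 13.6 CPM in Atg7-deleted oil libraries, and 9.22 and 8.45 CPM in control estradiol libraries against 13.9 and 17.9 CPM in control oil libraries. One pair of libraries overlapped, Atg7-deleted estradiol library 2 lying just above Atg7-deleted oil library 1. Ifih1 fell by 0.71 ± 0.24 on the log2 scale (SE, adjusted p = 0.0358, edgeR), and leaving out any of Atg7-deleted estradiol library 1, Atg7-deleted oil library 2, control estradiol library 1, control estradiol library 2 or control oil library 2 gave an adjusted p of 0.126, 0.120, 0.0821, 0.0973 and 0.0631. Scaled by library totals alone it was 0.0590. Ddx58 (RIG-I) had a log2 fold change of 0.31 ± 0.22 (SE), and Dhx58 (LGP2), Zbp1 and Trim25, the ubiquitin ligase that acts on RIG-I, had 0.57 ± 0.47, 0.34 ± 0.44 and -0.20 ± 0.18. None of these 4 passed the test.

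In the group of OAS enzymes and translation or RNA decay factors, 2 of 4 tested members rose, Eif2ak2 and Oas1a, and 0 fell, a group too small to set against the 24.1% of all tested genes that rose. Eif2ak2 (PKR), the kinase that stops translation on double-stranded RNA, had 40.1 and 53.7 CPM in Atg7-deleted estradiol libraries against 33.2 and 32.9 CPM in Atg7-deleted oil libraries. In control stroma Eif2ak2 had 42.9 and 53.6 CPM after estradiol against 24.5 and 30.8 CPM after oil. All estradiol libraries were above all oil libraries, and Eif2ak2 rose by 0.66 ± 0.16 on the log2 scale (SE, adjusted p = 0.00894, edgeR). Oas1a, an enzyme of the oligoadenylate family that switches on RNase L, had 3.42 and 6.31 CPM in Atg7-deleted estradiol libraries against 2.69 and 3.78 CPM in Atg7-deleted oil libraries. In control stroma Oas1a had 6.15 and 6.92 CPM after estradiol against 1.89 and 2.48 CPM after oil. The control groups were far apart and the Atg7-deleted groups overlapped, and Oas1a rose by 1.08 ± 0.31 on the log2 scale on average (SE, adjusted p = 0.0182, edgeR). The adjusted p was 0.0842, 0.0603 and 0.0550 without Atg7-deleted estradiol library 2, Atg7-deleted oil library 1 and control estradiol library 2. Reads of Oas1a may be split with its near-identical copy Oas1g, which also rose (1.24 ± 0.32, SE, adjusted p = 0.0119, edgeR). Oasl1, a relative in which the enzyme activity is lost, pointed the other way without passing the test (-0.68 ± 0.27, SE, adjusted p = 0.0639, edgeR).

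In the IFIT and IFI group, Ifi27 and Ifi44 rose. Ifi27, a small membrane protein gene of mitochondria and nuclear envelope, had 144 and 159 CPM in Atg7-deleted estradiol libraries against 127 and 107 CPM in Atg7-deleted oil libraries, and 157 and 145 CPM in control estradiol libraries against 93.6 and 114 CPM in control oil libraries. The libraries did not overlap, and the rise of 0.46 ± 0.13 on the log2 scale (SE, adjusted p = 0.0166, edgeR) was the smallest among the called members. The adjusted p was 0.0658, 0.0617 and 0.0599 without Atg7-deleted estradiol library 2, Atg7-deleted oil library 2 and control estradiol library 1. Ifi44 had 23.7 and 25.2 CPM in Atg7-deleted estradiol libraries against 14.9 and 23.9 CPM in Atg7-deleted oil libraries, and 34.2 and 36.7 CPM in control estradiol libraries against 12.3 and 23 CPM in control oil libraries. Oil library 1 was low in both genotypes, and 1 Atg7-deleted estradiol library, at 23.7 CPM, was below Atg7-deleted oil library 2.

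Ifi44 rose by 0.67 ± 0.23 on the log2 scale (SE, adjusted p = 0.0367, edgeR), the call that fewest alternatives kept, 8 of 15. Without each of the 2 Atg7-deleted estradiol libraries the adjusted p was 0.0837 and 0.0981, without the 2 control estradiol libraries 0.0751 and 0.0902, without Atg7-deleted oil library 1 0.111 and without control oil library 1 0.0528. Ifit1, Ifit2 and Ifit3 had log2 fold changes of -1.0 ± 0.38, 0.28 ± 0.41 and -0.25 ± 0.52 (SE) and did not pass, the nearest being Ifit1 at an adjusted p of 0.0552 (edgeR). Counts of Ifit3 may be shared with its copy Ifit3b.

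The restriction factors, which act on virus particles and membranes, held both the largest rise and the largest fall of the 37 genes. Bst2 (tetherin), which holds budding virus at the cell surface, had 955 and 428 CPM in Atg7-deleted estradiol libraries against 167 and 77.5 CPM in Atg7-deleted oil libraries. In control stroma Bst2 had 465 and 409 CPM after estradiol against 92.0 and 134 CPM after oil. Every estradiol library stood above every oil library, and the 2 Atg7-deleted libraries of each treatment differed from each other by over 2-fold. Averaged over genotypes Bst2 rose 4.68-fold, a log2 fold change of 2.23 ± 0.31 (SE, adjusted p = 6.36e-04, edgeR). The rise was 5.67-fold in Atg7-deleted stroma (adjusted p = 0.00571, edgeR) and 3.87-fold in control stroma (adjusted p = 0.0113, edgeR). Without Atg7-deleted estradiol library 1, the highest, the log2 fold change in Atg7-deleted stroma was 1.82 with an adjusted p of 0.0502, and without control estradiol library 1 that in control stroma was 1.86 with an adjusted p of 0.0616. Bst2 also marks plasmacytoid dendritic cells in mice. Of the other genes in the marker list of these cells, Siglech had 2 reads in all 8 libraries together and Ccr9 had 0. Ly6d was between 1.08 and 2.52 CPM and Tcf4, which many cells express, between 591 and 779 CPM. Of the list's 3 tested genes, only Bst2 was called for the average estradiol effect. The part of these cells in the rise of Bst2 was not tested.

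Ifitm1, a membrane protein that hinders fusion of virus with the cell, went the other way. It had 20 and 40.3 CPM in Atg7-deleted estradiol libraries against 128 and 117 CPM in Atg7-deleted oil libraries, and 32.7 and 42.7 CPM in control estradiol libraries against 138 and 91.9 CPM in control oil libraries. The groups were well apart, and Ifitm1 was 3.52-fold lower with estradiol, a log2 fold change of -1.81 ± 0.23 (SE, adjusted p = 4.35e-04, edgeR). Ifitm1 fell by 2.02 on the log2 scale in Atg7-deleted stroma (adjusted p = 0.00432, edgeR) and by 1.61 in control stroma (adjusted p = 0.00801, edgeR), the last becoming -1.42 with an adjusted p of 0.0730 without control estradiol library 1. Its paralogs on the same chromosome did not follow. Ifitm3, the most abundant member, had 840 and 1117 CPM in Atg7-deleted estradiol libraries against 1194 and 962 CPM in Atg7-deleted oil libraries, and 938 and 1308 CPM in control estradiol libraries against 1175 and 959 CPM in control oil libraries. These groups overlapped fully (-0.03 ± 0.17, SE, adjusted p = 0.892, edgeR), and Ifitm2 was at 0.16 ± 0.18 (SE, adjusted p = 0.495, edgeR). Reads of Ifitm1 were 2.38% and 3.61% of those of Ifitm3 in Atg7-deleted estradiol libraries against 10.7% and 12.1% in Atg7-deleted oil libraries, and 3.48% and 3.27% in control estradiol libraries against 11.8% and 9.58% in control oil libraries. That ratio does not depend on how libraries were scaled.

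The fall of Ifitm1 went with the fall of the epithelial markers, of which 8 of 12 were called lower with estradiol and 0 higher. Within the oil groups, the epithelial sum was 11090 CPM in Atg7-deleted library 1 and 4764 CPM in library 2, where Ifitm1 was 128 and 117 CPM, and 17910 CPM in control library 1 and 6096 CPM in library 2, where Ifitm1 was 138 and 91.9 CPM. Without both oil libraries numbered 1, an analysis added after those sums were seen, Ifitm1 had a log2 fold change of -1.63. The oil libraries kept still had epithelial sums of 4764 and 6096 CPM, against 1241 to 2607 CPM in estradiol libraries. That fit therefore still compared treatments that differ in epithelial RNA. The same analysis ended the average calls of Irf8, Oas1a (0.87, adjusted p = 0.0910, edgeR) and Ifi44 (0.31, adjusted p = 0.1295, edgeR), and in control stroma those of Eif2ak2, Oas1a and Ifi44, with adjusted p of 0.0896, 0.0912 and 0.0688. How far the change in epithelial or smooth muscle RNA accounts for any member was not tested.

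Rsad2 (viperin), an enzyme that makes a chain-ending nucleotide, had 58.8 and 114 CPM in Atg7-deleted estradiol libraries against 144 and 269 CPM in Atg7-deleted oil libraries. In control stroma Rsad2 had 77.9 and 126 CPM after estradiol against 186 and 272 CPM after oil. Estradiol libraries were all below oil libraries, although library 2 was the higher in each of the 4 groups, and Rsad2 fell by 1.21 ± 0.29 on the log2 scale (SE, adjusted p = 0.00780, edgeR). Within each genotype it missed the threshold narrowly, at adjusted p of 0.0511 in Atg7-deleted stroma and 0.0554 in control stroma (edgeR). Mx2, annotated as a polymorphic pseudogene in GENCODE and known from other strains as an antiviral GTPase, had 1.26 and 2.75 CPM in Atg7-deleted estradiol libraries against 5.53 and 5.36 CPM in Atg7-deleted oil libraries, and 1.96 and 2.77 CPM in control estradiol libraries against 4.89 and 6.90 CPM in control oil libraries. The groups were apart at this low level, and Mx2 fell by 1.37 ± 0.33 on the log2 scale (SE, adjusted p = 0.00838, edgeR). Mx1 (-0.34 ± 0.59, SE) and Rtp4 (0.10 ± 0.28, SE) did not pass.

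The interferon-induced GTPases, which act on vacuoles that hold bacteria and parasites, gave 0 calls among 5 genes in the average estradiol effect. These 5 GTPases are too few to set against the 24.1% of all tested genes that rose and the 22.2% that fell. Gbp2, the most abundant, had 31.8 and 39.1 CPM in Atg7-deleted estradiol libraries against 28.3 and 78.3 CPM in Atg7-deleted oil libraries, and 34.4 and 41.8 CPM in control estradiol libraries against 22.1 and 65.0 CPM in control oil libraries. The 2 oil libraries of each genotype enclosed the estradiol libraries, so the spread within oil groups was larger than the difference between treatments (-0.39 ± 0.37, SE, adjusted p = 0.421, edgeR). Gbp3 and Gbp7 showed the same order of libraries in oil, with 27.3 and 56.6 CPM and 15.8 and 36.4 CPM in Atg7-deleted oil libraries 1 and 2, and 15.6 and 43.0 CPM and 11.8 and 28.0 CPM in control oil libraries 1 and 2. Igtp, whose reads may be shared with the overlapping gene Irgm2, had its highest value of 28.2 CPM in Atg7-deleted oil library 2, with 6.76 to 10.4 CPM in the other 7 libraries, and a log2 fold change of -0.77 ± 0.34 with estradiol (SE, adjusted p = 0.0936, edgeR).

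Parp14, an ADP-ribosyl transferase, was the called member of the last group, which holds the ISG15 system and other effectors. It had 21.9 and 20.5 CPM in Atg7-deleted estradiol libraries against 37.9 and 46.0 CPM in Atg7-deleted oil libraries, and 22.3 and 27.0 CPM in control estradiol libraries against 38 and 45.7 CPM in control oil libraries. The treatments did not overlap, and Parp14 fell by 0.87 ± 0.15 on the log2 scale (SE, adjusted p = 0.00159, edgeR). Isg15, the ubiquitin-like protein joined to other proteins in the response, had 56.7 and 96.2 CPM in Atg7-deleted estradiol libraries against 83 and 94.7 CPM in Atg7-deleted oil libraries, and 57.5 and 102 CPM in control estradiol libraries against 55.8 and 105 CPM in control oil libraries. Isg15 was lower in library 1 than in library 2 of every group, and estradiol and oil overlapped fully (-0.11 ± 0.26, SE, adjusted p = 0.754, edgeR). Usp18, the protease that removes ISG15 and damps the type I receptor, was at -0.06 ± 0.30 (SE), and Xaf1 at 0.53 ± 0.26 (SE, adjusted p = 0.131, edgeR).

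**Figure D3:**
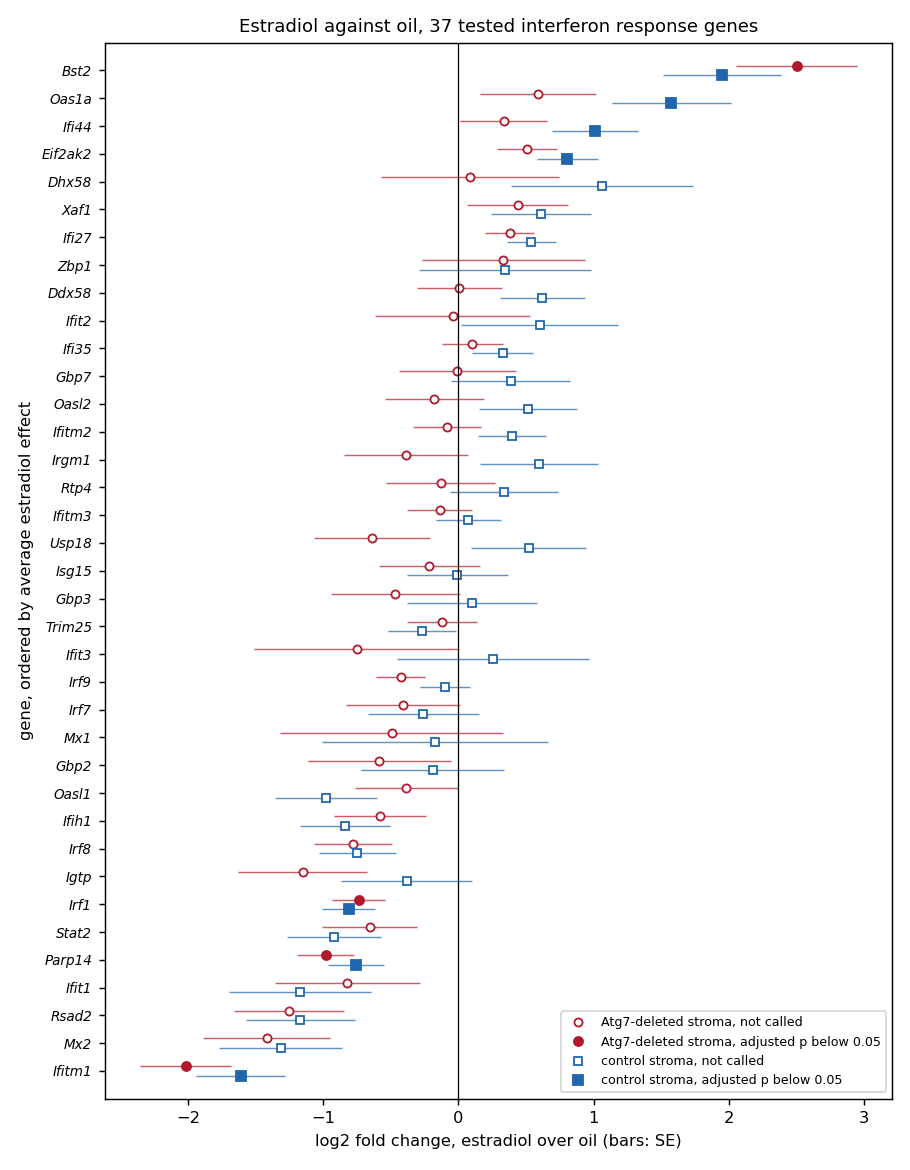
Log2 fold change of estradiol over oil with its SE for the 37 tested members, ordered by the average effect, in Atg7-deleted stroma (red circles) and control stroma (blue squares), filled where the adjusted p is below 0.05. Bst2 lies farthest right and Ifitm1 farthest left in both genotypes.

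Within single genotypes fewer members passed. In Atg7-deleted stroma Bst2 rose and Irf1, Ifitm1 and Parp14 fell, 1 and 3 of 37, where 13.1% of all tested genes rose and 11.2% fell. In control stroma Bst2, Oas1a, Ifi44 and Eif2ak2 rose and Irf1, Ifitm1 and Parp14 fell, 4 and 3 of 37, where 15.8% of all tested genes rose and 14.0% fell. Without control estradiol library 1 the counts in control stroma were 0 and 0, and without Atg7-deleted estradiol library 1 the counts in Atg7-deleted stroma were 0 and 1. Parp14 fell by 0.98 on the log2 scale in Atg7-deleted stroma (adjusted p = 0.0116, edgeR) and by 0.76 in control stroma (adjusted p = 0.0243, edgeR). The first of these calls had adjusted p of 0.0818, 0.0880 and 0.0690 without Atg7-deleted estradiol library 1, estradiol library 2 and oil library 2, the other 0.161, 0.0626 and 0.0529 without control estradiol library 1, estradiol library 2 and oil library 2. In control stroma Eif2ak2 (0.80 ± 0.23, SE) and Oas1a (1.57 ± 0.44, SE) lost the call without either estradiol library or oil library 1, with adjusted p of 0.0597, 0.15 and 0.0804 for Eif2ak2 and 0.0887, 0.107 and 0.0878 for Oas1a. Ifi44 in control stroma (1.01 ± 0.32, SE) lost it without those 3 libraries and without either Atg7-deleted estradiol library, with adjusted p of 0.0731 to 0.144. The fall of Ifitm1 in Atg7-deleted stroma was the only call of a single genotype kept in all 16 alternatives. The median log2 fold change over members was -0.39 in Atg7-deleted stroma and 0.10 in control stroma, against 0.02 and 0.01 over all tested genes. The estradiol effect had the same sign in both genotypes, which share no library, for 27 of 37 members (73%) and for 85.9% of all tested genes.

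Deletion of Atg7 changed 0 of the 37 members by the test in any comparison. Called were 0 members in estradiol-treated stroma, 0 in oil-treated stroma and 0 for the average of both, where 0%, 0% and 0% of all tested genes were called, and DESeq2 also called 0 members in each. At an unadjusted p below 0.05 there were 1, 0 and 0 members, against 403, 339 and 543 of the 13347 tested genes. The 1 member was Irf9 in estradiol-treated stroma, with 45.5 and 54.7 CPM in Atg7-deleted libraries against 61.6 and 74.4 CPM in control libraries (-0.44 ± 0.18, SE, unadjusted p = 0.0401, adjusted p = 1, edgeR). The SE of the deletion effect was between 0.18 and 0.85 on the log2 scale in estradiol-treated stroma, so small changes were not detectable with 2 libraries a group.

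In estradiol-treated stroma the members next in p were Irgm1 and Ifi44. Irgm1, a GTPase with a role in autophagy of microbes, had 2.88 and 4.21 CPM in Atg7-deleted libraries against 7.12 and 6.30 CPM in control libraries (-0.91 ± 0.45, SE, adjusted p = 1, edgeR). Ifi44 had 23.7 and 25.2 CPM in Atg7-deleted libraries against 34.2 and 36.7 CPM in control libraries (-0.53 ± 0.31, SE, adjusted p = 1, edgeR). Neither gene's groups overlapped, and neither passed. Over members the median log2 fold change was -0.20, with 29 of 37 below 0, against -0.01 and 52.1% below 0 over all tested genes. Without Atg7-deleted estradiol library 1 that median was -0.012, so it rests largely on the low values of this library.

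In oil-treated stroma the smallest p among members was that of Igtp, with 8.69 and 28.2 CPM in Atg7-deleted libraries against 8.99 and 10.4 CPM in control libraries (0.92 ± 0.47, SE, adjusted p = 1, edgeR). The difference came from Atg7-deleted oil library 2 alone, without which the log2 fold change was -0.16. Trim25 had 36.5 and 53.6 CPM in Atg7-deleted libraries against 67.8 and 54.5 CPM in control libraries (-0.44 ± 0.26, SE), and Ifih1 had 9.64 and 13.6 CPM against 13.9 and 17.9 CPM in control libraries (-0.45 ± 0.33, SE). Both sets of values stood apart, by under 1 CPM, and did not pass. Over members the median was 0.09 in oil-treated stroma, with 24 of 37 above 0. Over all tested genes it was -0.009, with 6479 of 13347 above 0.

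**Figure D4:**
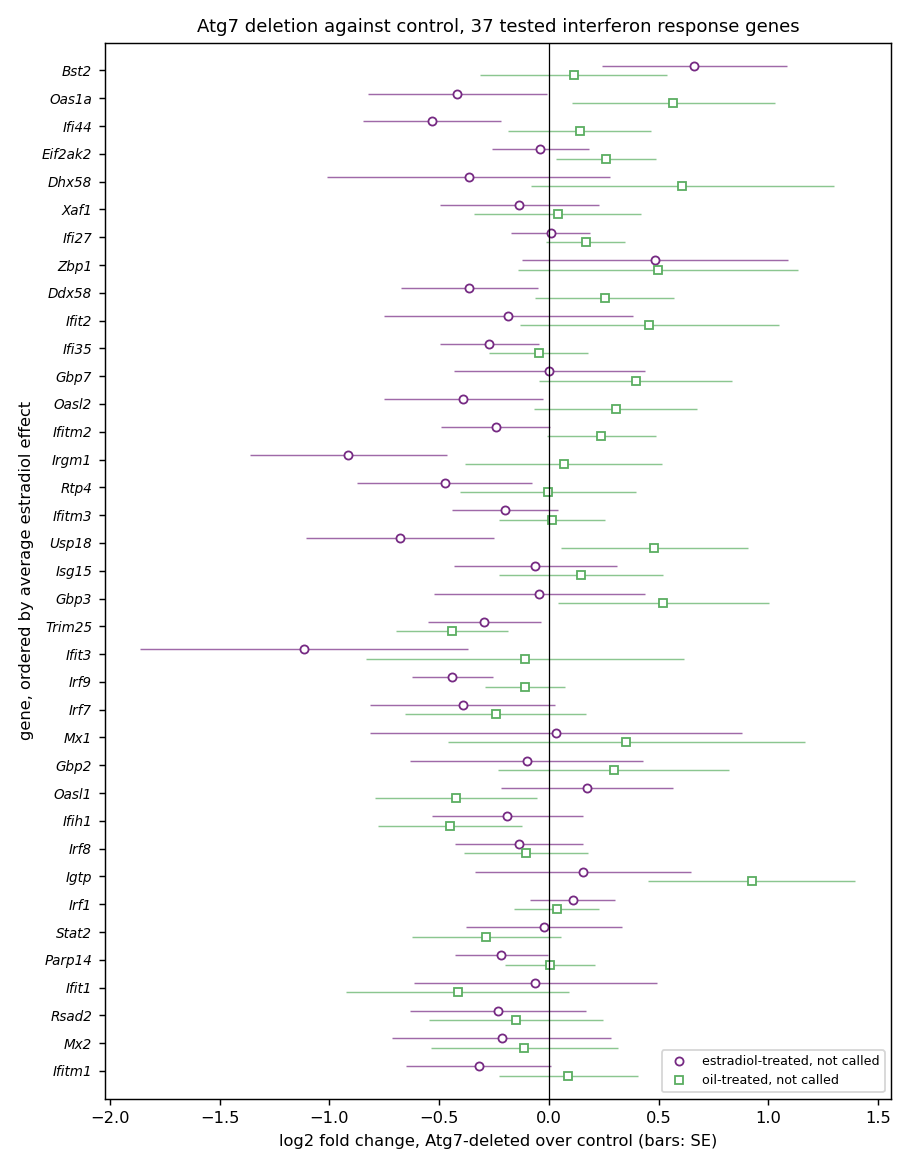
Log2 fold change of Atg7-deleted over control stroma with its SE for the 37 tested members in the order of the average estradiol effect, in estradiol-treated stroma (purple circles) and oil-treated stroma (green squares). All symbols are open because 0 members passed, and 29 of 37 circles lie left of 0.

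The interaction, which is the estradiol effect in Atg7-deleted stroma minus that in control stroma, was called for 0 members and for 0% of all tested genes, with 0 members and 210 tested genes at an unadjusted p below 0.05. It was below 0 for 30 of 37 members, with a median of -0.30, against 51.1% of all tested genes and a median of -0.01. No test was made of that count, and the median was between -0.08 without control oil library 1 and -0.53 without Atg7-deleted estradiol library 2. Usp18 had the smallest p, with 2.52 and 3.72 CPM in Atg7-deleted estradiol libraries against 4.11 and 5.67 CPM in Atg7-deleted oil libraries, and 3.77 and 6.30 CPM in control estradiol libraries against 3.63 and 3.36 CPM in control oil libraries. Estradiol libraries were the lower ones in Atg7-deleted stroma and the higher ones in control stroma, an interaction of -1.16 ± 0.60 (SE, unadjusted p = 0.0864, adjusted p = 1, edgeR). Oas1a and Irgm1 followed at -0.98 ± 0.62 and -0.98 ± 0.63 (SE, edgeR), neither past the threshold.

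The members also differed between the 2 libraries of a group, and mostly in one direction. Library 2 was the higher for 30 of 37 members (81.1%) in Atg7-deleted estradiol stroma, 27 (73.0%) in Atg7-deleted oil stroma, 24 (64.9%) in control estradiol stroma and 27 (73.0%) in control oil stroma. Over all tested genes the shares were 52.3%, 51.4%, 55.3% and 50.3%. The median log2 difference of library 2 over library 1 was 0.48, 0.44, 0.27 and 0.34 over members in the same order, and 0.02, 0.02, 0.05 and 0.01 over all tested genes. In all 4 groups library 2 was the higher for 13 members (35.1%) and for 10% of tested genes, among those members Isg15, Rsad2, Irf7, Gbp2, Gbp3, Rtp4, Ifit1 and Ifit3. The exceptions included Irf8, lower in library 2 of all 4 groups, and Bst2, lower in library 2 of 3 groups.

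The libraries were over 2-fold apart for 5 members (13.5%) in Atg7-deleted estradiol stroma and 10 (27.0%) in Atg7-deleted oil stroma. In control stroma they were so for 0 members after estradiol and 10 (27.0%) after oil. The shares over all tested genes, in the same order, were 5.16%, 7.38%, 6.00% and 14.9%. In control oil stroma Ifit3 had 2.05 and 11.9 CPM, Dhx58 0.789 and 4.25 CPM and Gbp2 22.1 and 65.0 CPM in libraries 1 and 2. Library 1 of both oil groups had the higher sum of epithelial markers. Library 1 of both estradiol groups had the lower sum (1286 against 1751 CPM, and 1241 against 2607 CPM). Lymphocyte and NK cell markers summed to 1.54 to 9.30 CPM over 14 genes in all libraries. The part of cell make-up in these differences between libraries was not tested.

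**Figure D5:**
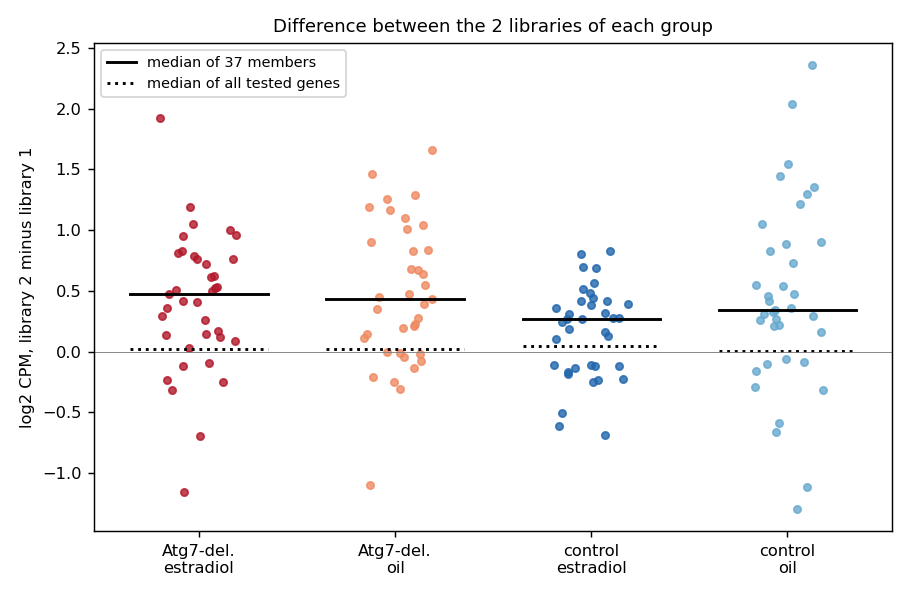
Log2 CPM of library 2 minus library 1 in each group, with a point for each of 37 members, a solid line at their median and a dotted line at the median of all 13347 tested genes. The solid lines lie between 0.27 and 0.48 and the dotted lines near 0.

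The other genes of the pathway were taken from 5 lists of 147 genes, of which 110 were tested. Of 21 interferon ligands, 14 had 0 reads in all libraries, Ifnb1 had 7 reads in all 8 together, and only Ifne passed the filter. Ifne, the interferon epsilon gene, had 4 and 18 reads in Atg7-deleted estradiol libraries against 5 and 0 reads in Atg7-deleted oil libraries, and 21 and 36 reads in control estradiol libraries against 0 and 0 reads in control oil libraries. All but 1 of the estradiol libraries were above all oil libraries, and Ifne rose on average (adjusted p = 0.00721, edgeR). In control stroma Ifne was at least 16.7-fold higher with estradiol, against a floor of 3 reads over the group. In Atg7-deleted stroma the ratio was 4.75 (95% exact binomial interval 1.76 to 16.1, covering counting error only), and the interaction did not pass (unadjusted p = 0.0674, adjusted p = 1, edgeR).

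Receptors were present in all libraries. Ifnar1, Ifnar2 and Ifngr1 averaged 55.5, 83 and 78.9 CPM over the 8 libraries, and their average estradiol effects of -0.26 ± 0.15, -0.18 ± 0.12 and -0.21 ± 0.13 (SE) did not pass. Ifngr2, the second chain of the gamma receptor, rose (0.51 ± 0.14, SE, adjusted p = 0.0161, edgeR). Ifnlr1, the interferon lambda receptor known mainly from epithelia, fell by 1.67 ± 0.34 on the log2 scale (SE, adjusted p = 0.00384, edgeR), beside the fall of the epithelial markers. How far epithelial RNA accounts for the fall of Ifnlr1 was not tested. Jak2 and Stat3 fell as well, by 0.81 ± 0.22 and 0.84 ± 0.14 (SE).

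Among 15 tested sensors and adaptors that start interferon production, Tmem173 (STING) rose by 1.10 ± 0.16 on the log2 scale (SE, adjusted p = 7.34e-04, edgeR) and Irf2, a factor that opposes Irf1, fell by 0.80 ± 0.17 (SE, adjusted p = 0.00440, edgeR). Over all tested genes 24.1% rose and 22.2% fell in this comparison. Of 53 tested further interferon-induced genes, 6 rose, among them Lgals3bp (1.02 ± 0.15, SE), Ifi204 (1.65 ± 0.35, SE) and Slfn9 (24 against 0 reads in control stroma, at least 7.02-fold), and 6 fell, among them Slfn5 (-0.91 ± 0.14, SE) and the chemokine gene Ccl5 (-1.23 ± 0.30, SE), 11.3% in each direction and so below that background. Of 25 tested antigen presentation genes, 4 rose and 9 fell, 16.0% and 36.0%. Tapbpl and Psme2 rose by 0.70 ± 0.13 and 0.73 ± 0.17 (SE). Tap2 (0.68 ± 0.25, SE) and the class I gene H2-T22 (0.84 ± 0.27, SE) rose as well. The class I genes H2-K1, H2-D1 and H2-Q4 and their light chain B2m fell by 0.52, 0.46, 1.19 and 0.49 on the log2 scale, and the class II genes H2-Aa, H2-Ab1 and H2-Eb1 with Cd74 fell by 0.74, 0.73, 1.19 and 1.09. Within single genotypes fewer of these genes passed. In control stroma Tapbpl and Psme2 were called higher and H2-Eb1 lower. In Atg7-deleted stroma H2-K1, Tapbp, Cd74 and H2-Aa were called lower and none higher. Class II genes mark antigen-presenting cells. The sums of the conventional dendritic cell and macrophage markers are given beside Irf8, and their part in the fall of class II genes was not tested. Deletion of Atg7 and the interaction gave 0 calls in each of the 5 lists.

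Of the 17 members with an ISRE match in the promoter window, 3 rose with estradiol on average (Bst2, Eif2ak2 and Oas1a) and 3 fell (Ifih1, Rsad2 and Stat2). Of the 12 matched members without one, 1 rose (Ifi44) and 3 fell (Ifitm1, Irf1 and Irf8). Over all tested genes 24.1% rose and 22.2% fell, and no difference between members with and without a match was tested. The stretches printed above show Bst2 and Rsad2 with an ISRE match at a similar distance, 130 to 115 and 120 to 111 bases before the start, and opposite responses to estradiol. Isg15, with 3 overlapping matches, did not pass the test in either genotype.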

How the data were processed

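RNA of uterine stromal cells was measured in 8 libraries made from 500 ng of total RNA with a 3′ end kit, per the labels' protocols. The authors deposited unscaled read counts by gene symbol, a unit settled from the whole-number values. Bowtie2, edgeR and build mm10 are named in the submitters' processing notes, with no version or role, and the counter, with its use of strand, is not given in the sources used here, so reads of overlapping genes cannot be told apart. For 35 symbols on several lines, 0 of them members, the highest line was used.

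The quasi-likelihood test of edgeR 4.0.16, in R 4.3.3, used filterByExpr (minimum count 10, minimum total 15), TMM scaling (factors 0.918 to 1.03) and 1 model with a mean per group (biological coefficient of variation 21.8%). There were 7 contrasts, with p-values adjusted over all 13347 tested genes by Benjamini and Hochberg at 0.05. The SE is the absolute log2 fold change over the root of the F statistic. Scripts were tested on simulated data. The members, lists and naming rule (each called member, the most abundant per role, the 3 smallest p per contrast and up to 4 genes per pathway list) were chosen with earlier results of these data known, and further members are given to complete each role. Values of 1 pathway gene are not reported here. Alternatives were DESeq2 1.42.0, other scalings, no filter, summed duplicate symbols, a replicate block, 2-group fits and leaving out each library. Promoters are RefSeq's for GRCm38.p6, and gene spans are from GENCODE on that build.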

Additional observations from a re-analysis of the deposited data

How the results depend on the processing

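For the average estradiol effect, 7 of the 13 member calls held in all 15 alternatives, while the counts of called members varied. For that effect, leaving out 1 library gave 6 to 9 members lower and 2 to 7 higher (8 and 5 with all libraries), and leaving out both oil libraries numbered 1, an analysis added after the marker sums were seen, gave 13 lower and 3 higher. In Atg7-deleted stroma the 3 members called lower became 5 with DESeq2's size factors, 7 with no filter on low counts, 6 with only the 2 groups compared and 8 without both oil libraries numbered 1, and leaving out 1 library gave 1 to 6 lower and 0 to 1 higher. In control stroma the 3 called lower became 7 with no filter and 6 without both oil libraries numbered 1, the 4 called higher became 2 with only the 2 groups compared and 1 without both oil libraries, and leaving out 1 library gave 0 to 5 lower and 0 to 6 higher. Without control estradiol library 1, 0 members were called in control stroma. With the replicate number as a block, 6 members were lower in Atg7-deleted stroma and 7 in control stroma; the block moved no other count by over 1.5 times. Deviations from the group mean, matched by replicate number, correlated at 0.494 between the oil groups and 0.230 between the estradiol groups. Between an oil and an estradiol group they correlated at -0.009, -0.026, -0.170 and -0.231. Equal numbers thus went together within a treatment and not across treatments. Whether they mark a shared batch was not tested. Counts for both deletion contrasts, their average and the interaction were 0 under every alternative run. With 1 library left out, the log2 fold change of Igtp ran from -0.16 to 1.54 for deletion in oil-treated stroma and from -0.0027 to 0.84 for the average deletion effect, turning below 0 without Atg7-deleted oil library 2, which holds its highest value. Among results for single genes, 495 kept their direction and side of the threshold, 60 lost the call and 2 turned. No scaling moved the median of all genes by over 0.1 (log2). With 2 libraries a group and 4 residual degrees of freedom, members under about 5 CPM carried SEs from 0.3 to over 0.8 on the log2 scale, so only large changes of Mx1, Zbp1, Ifit2 or Dhx58 could pass.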
